A study of Mus musculus with 18 samples.

Results

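Growing mouse oocytes of the same follicle stage differed in mean methylation over the CpGs that each library read. The 7 secondary follicle (SF) wild-type oocytes were set out in order of that mean, which was not tested as a measure of progress. They are 7 of 18 single oocytes that were profiled by reduced representation bisulfite sequencing, in which only MspI fragments are read and CpG-rich DNA is over-represented. All 7 libraries labelled wild type at the SF stage were used, whatever their values. The other 11 oocytes were 5 SF knockouts, 4 early antral follicle (EAF) wild types and 2 EAF knockouts. Wild type stands for Sall4fl/fl females that carry no Cre, so these oocytes keep both floxed alleles. Knockout stands for Sall4fl/fl;Zp3-Cre, in which the floxed gene for the zinc finger factor SALL4 is deleted by a Cre active in growing oocytes. The ages given for collection, P12.5 and P17.5, are not tied to any oocyte, and no animal is named. Each library is 1 cell, so the 7 oocytes count as 1 sample, and every value below is a description without a test.

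Oocytes that have begun to grow are arrested in meiotic prophase and do not divide. They start growth with most CpG methylation erased and regain it after birth through the de novo methyltransferase DNMT3A and its partner DNMT3L, mainly across transcribed sequence, while most CpG islands stay unmethylated. A CpG in such a cell is present on several chromatids, and both strands can be read, so a level between the extremes can arise within 1 cell.

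Between 19192 and 116807 autosomal CpGs per oocyte had at least 5 reads, with read counts over listed CpGs that summed to between 464501 and 3665846. The median count at a used CpG lay between 9 and 15 reads. The libraries share few CpGs: of 298804 autosomal CpGs with at least 5 reads in any of the 7, 64.7% were read that deeply in 1 oocyte only. Methylation alone does not show markers of the oocyte. On the X, CpGs with 20 or more CpG positions within 100 bp averaged between 0% and 2.86% in the 7 oocytes, on 29 to 410 CpGs each. In female somatic cells such sequence carries methylation on the silenced X. Of the CpGs listed in both libraries of a pair, at most 10.7% had identical counts, so no library was a second copy of another.

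Mean methylation over autosomal CpGs was 5.52% in replicate 3 and 11.03% in replicate 4. It was 13.5% in replicate 2, 15.3% in replicate 1, 17.1% in replicate 5 and 18.2% in replicate 6. Replicate 7 stood highest at 24.4%. The mean over the 7 was 15.01% ± 5.94 (SD, n = 7 oocytes), and the highest oocyte had 4.43 times the level of the lowest. The 4 EAF wild-type oocytes, of the later stage, lay between 19.5% and 23.1%, so by this mean replicate 7 was above all of them and the other 6 SF oocytes were below all of them. With CpGs weighted by their reads the stages overlapped: replicate 7 had 20.7% and replicate 6 16.7%, and the EAF oocytes ran from 15.4% to 23.9%. Depth did not move with this order: over the 7 oocytes, Pearson's r of the summed reads with the mean was 0.047 and Spearman's rho was 0.107. The deepest library, replicate 2, stood in the third place from the bottom, and the lowest and the highest oocyte were the 2 shallowest.

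Taken singly, the autosomes had the same ends. Replicate 3 was the lowest and replicate 7 the highest on 19 of 19 autosomes, and rho between a chromosome's values and the overall means was 0.929 to 1.0. Each autosome supplies part of the mean that set the order, so this agreement is largely built in. X-linked CpGs were not used to set the order. Their mean was 12.1% in replicate 3, 22.4% in replicate 4, 24.1% in replicate 2, 25.5% in replicate 1, 24.1% in replicate 5, 30.7% in replicate 6 and 35.6% in replicate 7. The X mean was thus above the autosomal mean in all 7 oocytes. It followed nearly the same order, with r = 0.963 and rho = 0.964 over the 7 oocytes. These points share library, depth and fragment sampling with the autosomal means. CpGs with 20 or more CpG positions within 100 bp, which carry little methylation, were a smaller part of the X than of the autosomal CpGs. In replicate 7 they were 29 of 1324 on the X and 4096 of 37233 on the autosomes. In replicate 3 they were 101 of 712 and 5470 of 19192. The 2 means were not matched for density, so whether the X is higher at equal density was not tested.

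In percentage points the spread was widest in CpG-poor and moderately dense sequence and narrowest in the densest. At CpGs with 1 to 4 CpG positions within 100 bp, the lowest oocyte had 10.1% and the highest 34.1%, with a mean of 22.5% ± 7.92 (SD, n = 7 oocytes). With 5 to 9 positions the range was 8.09% to 30.6%, and with 10 to 19 positions it was 6.69% to 20.3%. With 20 or more it was 0.736% to 1.89%, with replicate 1 lowest and replicate 7 again highest. As a ratio of the highest to the lowest oocyte the classes were closer, at 2.58 in the densest and 3.04 to 3.78 in the others. The narrow spread of the densest class holds for this cutoff. With 20 or more positions within 250 bp, which takes in less dense sequence, the spread was 11.4 points, against 1.16 points within 100 bp. Replicates 3 and 7 were the ends in each of the less dense classes within 100 bp. The share of an oocyte's CpGs in the densest class ran from 9.25% to 28.5%, so part of the differences between libraries lies in which fragments were read. With every oocyte set to the mean density mix of the 7, the means were 6.60% in replicate 3, 12.2% in replicate 4, 13.03% in replicate 2, 15.3% in replicate 1, 15.2% in replicate 5, 18.4% in replicate 6 and 22.2% in replicate 7. Only replicates 1 and 5 then changed places.

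**Figure D1:**
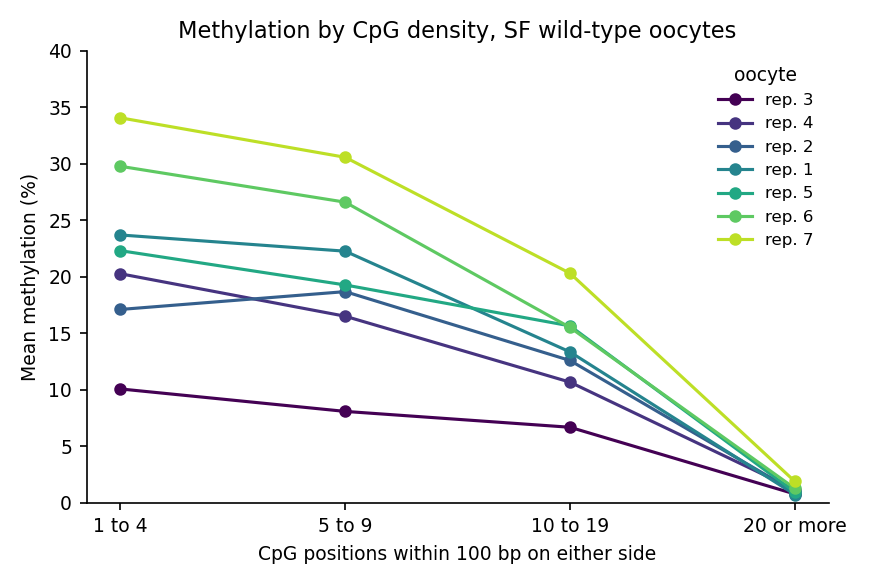
Mean methylation (%) of each SF wild-type oocyte (lines, 1 per oocyte) by the number of CpG positions within 100 bp on either side. The oocytes spread from 10.1% to 34.1% in the least dense class and from 0.736% to 1.89% in the densest.

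Each CpG of an oocyte was called methylated at 80% or above, low at 20% or below, and intermediate between these. The methylated share was 3.16% in replicate 3, 8.49% in replicate 4, 8.89% in replicate 2, 10.8% in replicate 1, 12.1% in replicate 5, 12.7% in replicate 6 and 19.1% in replicate 7. Intermediate CpGs made up 4.17% in replicate 3, 4.70% in replicate 4, 8.96% in replicate 2, 8.90% in replicate 1, 9.91% in replicate 5, 10.8% in replicate 6 and 10.7% in replicate 7. The low share fell from 92.7% in the lowest oocyte to 70.2% in the highest. Methylated CpGs supplied 3.09 points of the mean of replicate 3 and 18.8 points of the mean of replicate 7, while intermediate CpGs supplied 1.66 and 4.88 points. Over each oocyte's own CpGs, the order thus followed mainly how many were methylated nearly in full. At CpGs read in all 7 oocytes the picture was another. The methylated share there was 2.25% in replicate 3 and 4.22% in replicate 7, and the intermediate share 22.2% and 41.2%.

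**Figure D2:**
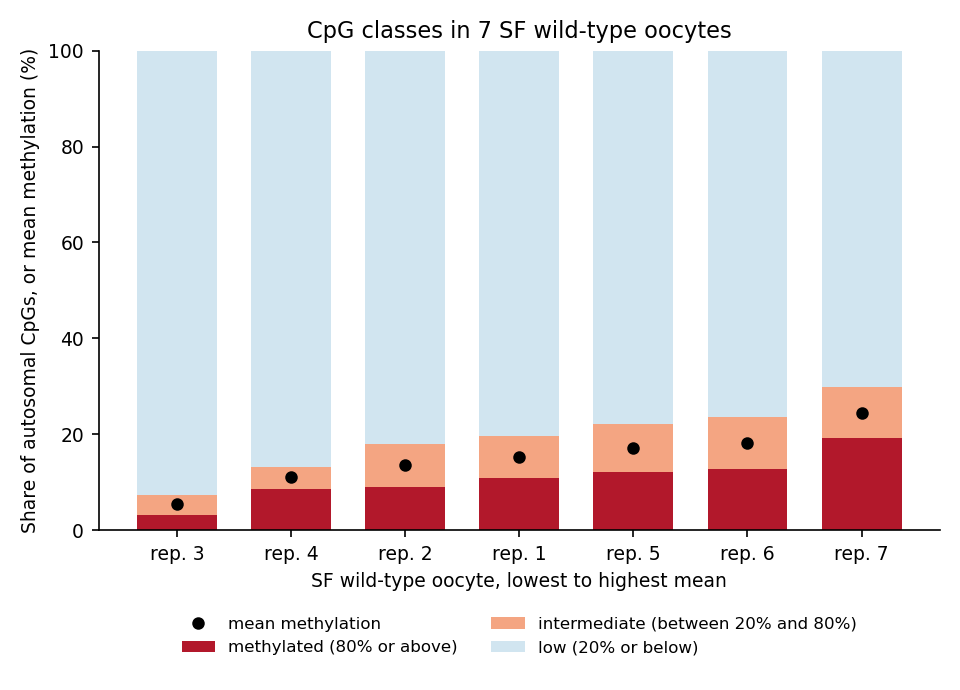
Share of autosomal CpGs (%) that were methylated, intermediate or low in each SF wild-type oocyte, ordered from the lowest to the highest mean, with the mean methylation (%) as a black point. The methylated share runs from 3.16% to 19.1% and the intermediate share from 4.17% to 10.8%.

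The intermediate share rose with the mean over all CpGs. Pearson's r was 0.883 and rho 0.929 over the 7 oocytes, and r was 0.928 without the 2 oocytes farthest from the median, replicates 3 and 7. The relation is not a straight climb: replicates 3 and 4 lay at 4.17% and 4.70%, and the other 5 between 8.90% and 10.8%. Replicate 7 had 6.23 points more mean methylation than replicate 6 and no more intermediate CpGs. Wilson intervals at 95% were 10.4% to 11.01% for replicate 7 and 10.6% to 11.06% for replicate 6. They cover counting error only and count each CpG as a separate draw. CpGs of 1 fragment share reads, and copies made by PCR are not separate molecules, so these intervals are too narrow. Reads per CpG bear on this class, since few reads cannot show a partial level precisely. With each CpG reduced to exactly 5 reads, the shares were 2.85%, 3.25%, 5.91%, 5.90%, 6.52%, 7.25% and 7.18% from the lowest to the highest oocyte, with r = 0.894.

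Intermediate CpGs were concentrated at positions that many libraries had read. Among CpGs read in 1 of the 7 oocytes, between 0.376% and 3.24% were intermediate, with a median of 1.82%. That median was 4.23% at CpGs read in 2 oocytes, 9.19% in 3, 23.1% in 4, 42.3% in 5, 47.2% in 6 and 33.5% in all 7. The methylated share went the other way, with a median of 12.6% at CpGs read in 1 oocyte and 2.48% at those read in all 7. The median number of reads per CpG was 11 to 15 from 1 to 6 oocytes and 36 at all 7. Because the sharing of CpGs is itself set by the 7 libraries, the split was repeated with the 11 other oocytes, which the order did not use.

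**Figure D3:**
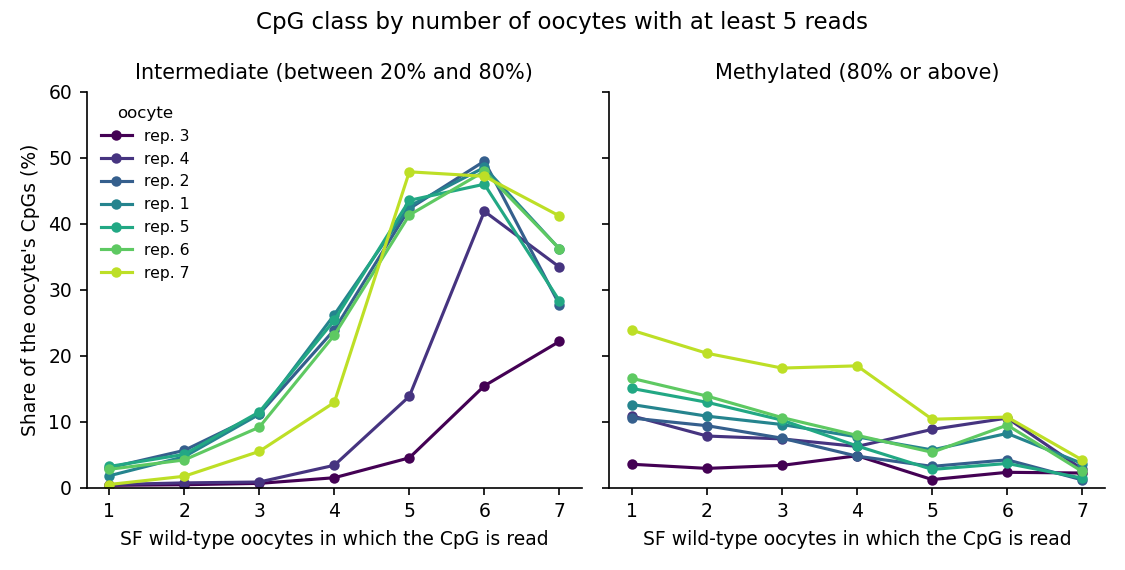
Share of each oocyte's CpGs (%) that were intermediate (left) or methylated (right), by the number of SF wild-type oocytes in which the CpG had at least 5 reads (lines, 1 per oocyte). The median intermediate share climbs from 1.82% at 1 oocyte to 47.2% at 6 oocytes, while the median methylated share falls from 12.6% at 1 oocyte to 2.48% at 7.

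CpGs with at least 5 reads in at most 3 of the 11 other oocytes made up 56.6% to 69.7% of each SF wild-type oocyte's CpGs, and nearly all of their calls were low or methylated. The labels describe no molecular identifiers, so reads copied from 1 molecule, which can only give levels near the extremes, and reads of several molecules cannot be told apart there. Their intermediate share was 0.405% in replicate 3, 0.559% in replicate 4, 1.83% in replicate 2, 1.42% in replicate 1, 1.41% in replicate 5, 1.66% in replicate 6 and 0.425% in replicate 7. The highest oocyte thus had as few as the lowest. Their methylated share was 3.16%, 8.62%, 9.38%, 11.2%, 14.2%, 14.8% and 21.8% in the same order, and the means ran from 3.34% to 21.9%, about as wide as over all CpGs. The relation of the intermediate share with the mean had r = 0.123 and rho = 0.214 at these CpGs, and r = 0.510 without replicates 3 and 7. With the number of autosomal CpGs read in the oocyte, the same share had r = 0.883 and rho = 0.893, and r = 0.776 without replicates 2 and 3.

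At CpGs read in more than 3 of the 11 others, the intermediate share was 9.09% in replicate 3, 14.0% in replicate 4, 25.1% in replicate 2, 26.1% in replicate 1, 27.7% in replicate 5, 26.5% in replicate 6 and 30.9% in replicate 7. Those CpGs held 85.9% to 97.4% of an oocyte's intermediate CpGs and 20.6% to 43.5% of its methylated ones. At them the intermediate share rose with the mean of the oocyte, with r = 0.914 and rho = 0.964. What these positions have in common beyond being read often was not tested.

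**Figure D4:**
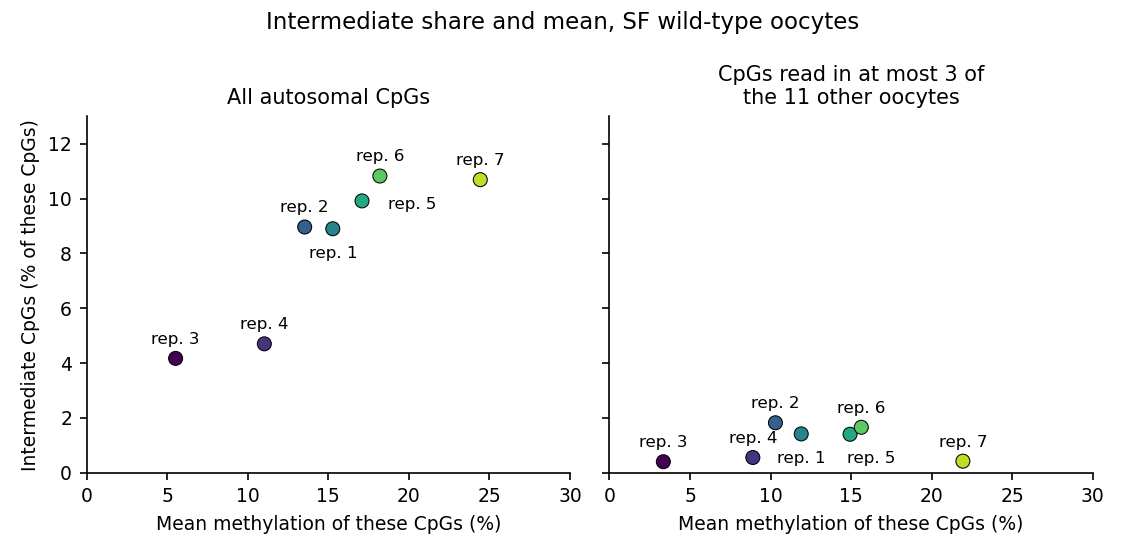
Intermediate CpGs (%) against mean methylation (%) in each SF wild-type oocyte (points), over all autosomal CpGs (left) and over CpGs read in at most 3 of the 11 other oocytes (right). The share lies between 4.17% and 10.8% on the left and between 0.405% and 1.83% on the right, where replicates 3 and 7 are both near 0.4%.

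The oocytes were then compared on the CpGs that both members of a pair had read, in 21 pairs that share 7 oocytes and so are not independent. Pairs had between 3868 and 39220 CpGs in common. The oocyte with the higher overall mean was also higher on the shared CpGs in 16 of 21 pairs. All 6 pairs with replicate 7 and all 6 with replicate 3 kept the order, with differences between 2.90 and 8.38 points. Replicates 3 and 7 differed by 7.86 points on their 3868 shared CpGs, against 18.9 points over all their CpGs. Of the 10 pairs among the other 5 oocytes, 5 kept the order, so the order within that group does not carry over to shared positions. The widest exception set replicate 1 at 23.0% against replicate 5 at 18.5% on 24015 shared CpGs, against 15.3% and 17.1% over all their CpGs. In the other 4 exceptions the higher minus the lower oocyte was -0.220 to -1.51 points. At CpGs read in at most 3 of the 11 other oocytes, 19 of 21 pairs kept the order. Such CpGs made up 56.6% to 69.7% of those whose mean set the order, so this count is not a separate check.

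Methylated CpGs of a lower oocyte were found in the higher one far more often than other CpGs were, but not as a full subset. Replicate 3 had 167 methylated CpGs among those it shared with replicate 4, and 86 of them, 51.5%, were methylated in replicate 4, where 4.15% of all shared CpGs were. Replicate 4 against replicate 2 gave 451 of 1183, 38.1%, beside 4.79% of all shared CpGs. Replicate 2 against replicate 1 gave 1454 of 2481, 58.6%, beside 8.92%. Neighbouring oocytes in the lower part of the order thus shared between 38.1% and 58.6% of the lower one's methylated CpGs.

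The upper part of the order reached a clearly higher share only between replicates 6 and 7. Replicate 1 against replicate 5 gave 872 of 2087, 41.8%, beside 7.06% of all shared CpGs. Replicate 5 against replicate 6 gave 719 of 1226, 58.6%, beside 9.21%. Replicate 6 against replicate 7 gave 542 of 787, 68.9%, beside 11.8%. As multiples of the share of all shared CpGs, these upper pairs had 5.92, 6.37 and 5.84. The neighbouring pairs of the lower part had 12.4, 7.96 and 6.57. The extremes of the order, replicate 3 against replicate 7, gave 52 of 84, 61.9%, beside 5.58%. The Wilson interval was 51.2% to 71.6%, which again counts each CpG as a separate draw and is too narrow.

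Over the 21 pairs the share found in the higher oocyte ran from 30.9% to 71.5%, with a median of 51.5%. It exceeded the share of all shared CpGs in 21 of 21 pairs, by 4.94 to 12.4 times. The reverse share, of the higher oocyte's methylated CpGs found in the lower one, ran from 24.1% to 56.7%, with a median of 41.0%. The forward share was the larger in 17 of 21 pairs. Those are by arithmetic the pairs in which the higher oocyte held more methylated CpGs, so the count adds nothing to the order itself.

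The shares were also put on a common background by an index, 1 minus the ratio of lower-only CpGs observed to those expected if both oocytes' methylated CpGs were placed independently. It is 1 for a perfect subset and 0 for independence. It cannot reach 1 where the lower oocyte holds more methylated CpGs, as in 4 pairs, whose upper limits were 0.656 for replicates 4 and 2, 0.748 for 4 and 5, 0.798 for 1 and 5, and 0.993 for 3 and 2. The index lay between 0.289 and 0.668, with a median of 0.494 over the 21 pairs and 0.545 over the 17 without such a limit. By oocyte, its median over 6 pairs was 0.456 for replicate 3, 0.454 for replicate 4, 0.478 for replicate 2, 0.503 for replicate 1, 0.392 for replicate 5, 0.541 for replicate 6 and 0.604 for replicate 7. The highest oocyte had the highest median, but replicate 7 is the higher member of all 6 of its pairs. Replicate 3 is the lower member of all of its own, so these medians also reflect the role in a pair. In the other direction, the reverse share in the pairs of replicate 7 had a median of 36.0%. Replicate 5 had the lowest median index, but 2 of its pairs are limited. Over its other 4 the median was 0.478, beside 0.481 for replicate 4 and 0.492 for replicate 3. The index did not follow how far apart a pair stood: r with the gap in overall means was 0.208 over the 21 pairs. The reverse share did fall with the gap, with r = -0.687. Its denominator is the higher oocyte's methylated CpGs, whose share rose with the mean (r = 0.991), so this fall is largely built in. In the 6 pairs of EAF wild-type oocytes, whose means lie closer together, the forward median was 58.8%, the reverse median 55.2% and the index 0.540.

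**Figure D5:**
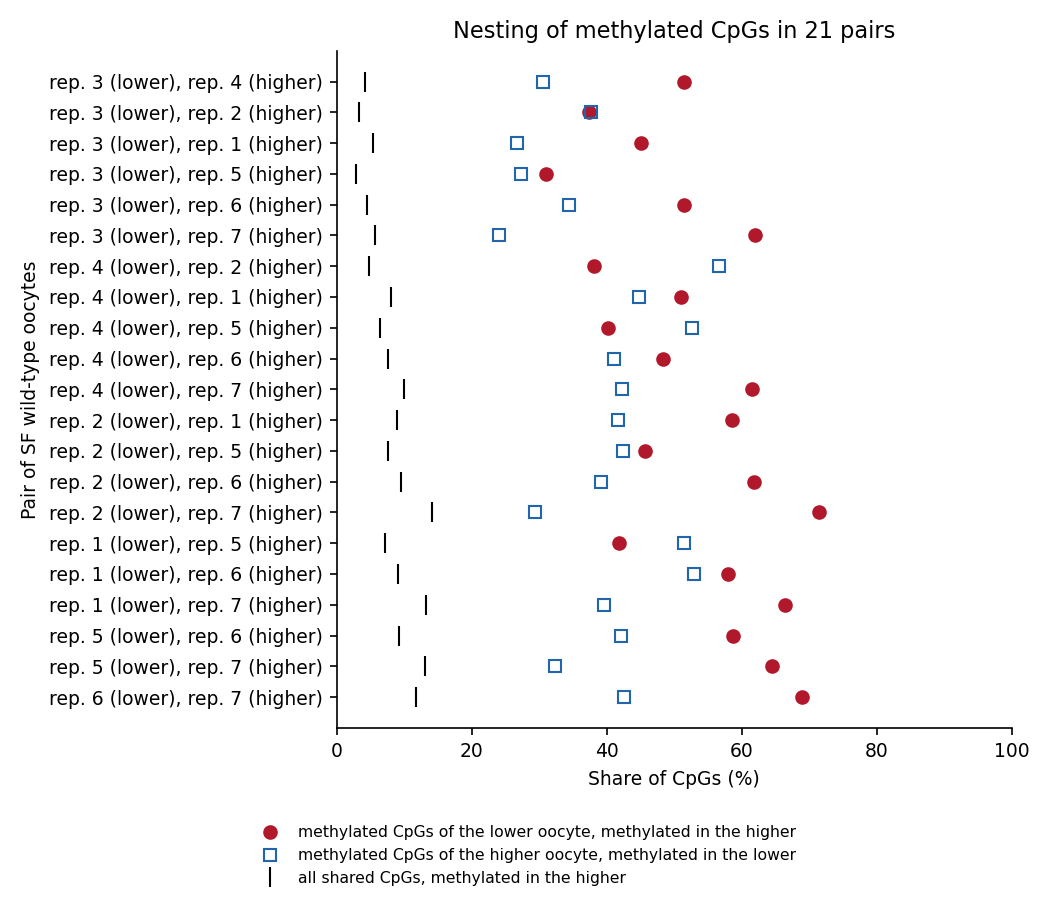
For each of 21 pairs of SF wild-type oocytes, the share (%) of the lower oocyte's methylated CpGs that were methylated in the higher (filled circles), the share of the higher oocyte's found in the lower (open squares) and the share of all shared CpGs methylated in the higher (vertical marks). Circles lie between 30.9% and 71.5% and are to the right of the marks, at most 14.02%, in every pair.

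CpGs that broke the subset were as often low as intermediate in the higher oocyte. Of the lower oocyte's methylated CpGs, a median of 22.4% were intermediate in the higher one and 23.7% were low, with a range of 13.1% to 39.4% for the low ones. The range for replicate 7 as the higher oocyte was 13.1% to 24.7% low. At CpGs read in at most 3 of the 11 other oocytes the forward median was 64.8%, with a range of 41.5% to 87.0%, the reverse median was 46.1% and the index 0.609. Replicate 6 in replicate 7 was the most complete there, at 87.0%. Intermediate states nearly vanished at those CpGs, at a median of 2.63%, and a median of 32.4% of the lower oocyte's methylated CpGs were low in the higher one.

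Agreement was also measured between the strands of a CpG within a cell. At CpGs with at least 5 reads on each strand, the other strand was also methylated for 57.1% of methylated strand calls in replicate 3, 52.1% in replicate 4, 42.9% in replicate 2, 53.9% in replicate 1, 47.1% in replicate 5, 55.1% in replicate 6 and 58.0% in replicate 7. Replicate 3 rests on 21 such calls. The other strand was low for 14.5% to 33.3% of the calls. Only 2.12% to 6.94% of an oocyte's CpGs had both strands read. In the 10 pairs of oocytes with at least 100 methylated strand calls at CpGs read on both strands in both, the other strand of the same oocyte was methylated for 8.14% to 44.4%, with a median of 26.9%. The same strand of the other oocyte was methylated for 29.9% to 59.7%, with a median of 40.4%, and the share within the oocyte was the larger in 0 of 10 pairs. At these CpGs the calls thus matched better by strand between cells than across strands within a cell. The 10 pairs are those among replicates 1, 2, 4, 5 and 6, so replicates 3 and 7 are not covered. The median of 26.9% within the oocyte lies below the 42.9% to 58.0% found over all CpGs read on both strands.

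Intermediate CpGs of a lower oocyte mostly kept that state in the higher one. Over the 21 pairs a median of 66.9% were intermediate in the higher oocyte, 23.3% were low and 9.58% were methylated. Of all shared CpGs, a median of 20.9% were intermediate and 7.60% methylated in the higher oocyte, so the methylated share of these CpGs was near that background. More of them were low than methylated in the higher oocyte in 21 of 21 pairs. Low is the commonest class, at 70.2% to 92.7% of each oocyte's own CpGs, so this count alone shows no shift downward. Intermediate levels also lay nearer the low end. Of an oocyte's intermediate CpGs with at least 20 reads, 41.8% to 74.3% were at 40% or below, and 2.25% to 19.4% were above 60%. For CpGs low in the lower oocyte the median share methylated in the higher one was 3.69%, below that of intermediate CpGs in 21 of 21 pairs. At CpGs read in at most 3 of the 11 other oocytes the split was another: 5.71% stayed intermediate, 51.6% were low and 38.9% were methylated, on 5 to 295 intermediate CpGs a pair.

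All 7 oocytes had read 2582 autosomal CpGs, at which the means were 15.01% in replicate 3, 21.9% in replicate 4, 19.8% in replicate 2, 26.3% in replicate 1, 19.0% in replicate 5, 23.4% in replicate 6 and 23.8% in replicate 7. Replicate 3 was again the lowest, and replicate 1 took the top. Of these CpGs, 2387 were methylated in no oocyte, 3 in all 7, and 192 in some. A strict order would let each of those 192 be methylated from some oocyte upward without a gap. That held for 29 CpGs, 15.1%, of which 22 were methylated in replicate 7 alone. Of the 117 methylated in 2 to 6 oocytes, 7 followed the order and 84 included replicate 7. The methylated CpGs numbered 58, 73, 31, 95, 38, 64 and 109 from the lowest to the highest oocyte, so replicates 2 and 5 held fewer than replicate 3.

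Some partial levels recurred at the same positions. At 311 of the 2582 CpGs all 7 oocytes were intermediate, and at 876 all 7 were low. At the 311, the mean level was 37.4% in replicate 3, 48.2% in replicate 4, 44.4% in replicate 2, 57.3% in replicate 1, 43.9% in replicate 5, 46.9% in replicate 6 and 41.6% in replicate 7. The highest oocyte was above the lowest at 184 of them. The median SD between oocytes at such a CpG was 10.3 points.

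The EAF wild-type oocytes gave the level at the later stage, but only at those of the same CpGs that they had read. For replicates 2 and 1, an EAF oocyte had read 242 to 395 of the 1454 CpGs methylated in both. Of the 5016 intermediate in both it had read 3289 to 4081, so the classes are covered unequally. A pair was used for a class where every EAF oocyte had read at least 20 of its CpGs. CpGs methylated in both oocytes of an SF pair averaged 83.2% in EAF wild type as the median over 20 pairs, with a range of 77.6% to 85.5%. Those methylated in the higher oocyte only averaged 64.7%, and those in the lower only 63.2%. CpGs low in both stood at 10.5% and those intermediate in both at 51.2%. The level at CpGs methylated in both exceeded each single class in 20 of 20 pairs, while higher-only exceeded lower-only in 11 of 20. These single classes include CpGs that were intermediate in the other oocyte. Where the other oocyte was low, the levels were 53.1% for the higher oocyte's CpGs and 43.4% for the lower oocyte's, over 18 and 13 pairs. In the 13 pairs with both values the higher oocyte's CpGs were above the lower's in 11.

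Levels were also taken over short regions, in windows of 1 kb. In 335 autosomal windows every one of the 7 oocytes had at least 3 CpGs. The mean of the 3 highest oocytes was above that of the 3 lowest in 241 windows, below it in 93 and equal in 1, with a median difference of 2.22 points. The CpGs of these windows are among those that set the order, so an excess in that direction follows in part from the ranking. Rising through all 7 oocytes without exception occurred in 1 window. In 153 windows every oocyte was at or below 20%, in 30 every oocyte lay between 20% and 80%, and no window had every oocyte at or above 80%.

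The windows named here were picked for their values, in mm9 coordinates. The widest difference was at chr4:72340001-72341000, with 11.8% in replicate 3, 0% in replicate 4, 5.33% in replicate 2, 44.6% in replicate 1, 47.1% in replicate 5, 6.69% in replicate 6 and 100% in replicate 7. The 4 EAF wild-type oocytes ran there from 3.57% to 82.5%. At chr13:16483001-16484000 the levels were 35.0%, 0%, 16.0%, 26.3%, 22.8%, 45.5% and 79.4% from the lowest to the highest oocyte. At chr3:90773001-90774000, chr10:15355001-15356000 and chr2:8111001-8112000 the 3 highest oocytes exceeded the 3 lowest by 32.0, 28.1 and 25.2 points. Replicates 6 and 7, next to each other in the order, were 6.69% and 100% in the chromosome 4 window, so even the widest windows do not rise evenly. Such windows rest on as few as 3 CpGs and 20 summed reads in an oocyte.

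Against the order, chr13:85984001-85985000 had 88.0%, 78.0%, 51.1%, 63.3%, 47.9%, 46.3% and 72.2% from the lowest to the highest oocyte. The means were 72.4% in the 3 lowest and 55.5% in the 3 highest. At chr12:69542001-69543000 replicate 2 alone stood apart, with 44.9% against 3.83% to 11.4% in the others. The other windows with the most negative differences were chr14:41360001-41361000 at -12.5 points, chr17:39983001-39984000 at -10.6 points and chr14:29002001-29003000 at -9.39 points. The last of these was at 79.98% to 89.3% in the EAF wild-type oocytes and at 55.0% in replicate 7. The chromosome 17 window had 350 to 9845 summed reads in an SF oocyte, the most of the windows named here. Whether its reads come from a single locus was not tested.

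A few windows stood high in every oocyte, the least methylated one included. At chr14:116633001-116634000 the levels were 66.4%, 70.9%, 73.3%, 84.4%, 71.1%, 70.0% and 83.04% from the lowest to the highest oocyte, and 82.5% to 92.3% in the EAF wild type. At chr16:27423001-27424000 they were 66.3%, 69.0%, 71.3%, 84.6%, 73.0%, 80.6% and 87.9%. At chr13:65098001-65099000 they were 80.9%, 78.7%, 75.1%, 69.9%, 62.0%, 81.0% and 84.0%. These 3 windows had the highest minimum over the 7 oocytes, and replicate 3, with its mean of 5.52%, had at least 66.3% in each of them.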

How the data were processed

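Per the labels' protocols, single-oocyte DNA was cut with MspI, bisulfite converted, amplified and size selected to 200 to 500 bp. BSMAP 2.89 and build mm9 are taken from the submitters' processing notes. For filters, the authors' choices were not given in the sources used here. Per the file headers, each deposited table gives for every listed CpG a total read count and a methylated read count, also by strand, and a methylation ratio, a fraction from 0 to 1.

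Levels were recomputed here from the deposited counts at autosomal CpGs with at least 5 reads, with equal weight for each CpG. The density of a CpG counted the positions seen in any of the 18 oocytes within 100 bp on either side. Named windows of 1 kb had at least 3 such CpGs in all 7 oocytes. They were the 5 with the largest and the 5 with the most negative difference between the 3 highest and the 3 lowest oocytes, and the 3 with the highest minimum, with no adjoining windows in a list. Coordinates count from 1. No gene annotation of mm9 was used, so genes, promoters and sequences were not analysed here. With 1 cell per library and no animal named, no test was made. The oocytes, classes and rules were chosen with earlier results of these data known. The routines were tested on simulated data. Alternatives changed the read minimum, the thresholds, the weighting and the CpGs or oocytes used. The software was scipy 1.17.1, pandas 2.3.3, numpy 2.4.6 and matplotlib 3.10.9 under Python 3.11.15.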

Additional observations from a re-analysis of the deposited data

Results flagged for a closer look

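Chromosome Y and the mitochondrial chromosome were outside the comparisons. Reads at CpGs of chromosome Y were seen in all 7 SF wild-type oocytes, which come from females. Their summed count ran from 4 in replicate 4 to 147 in replicate 2, above the limit of 3 counts in every oocyte. At mitochondrial CpGs the share of methylated reads was 0.889% in replicate 3, 5.70% in replicate 4, 5.86% in replicate 2, 0.347% in replicate 1, 0.964% in replicate 5, 0.797% in replicate 6 and 2.03% in replicate 7. Replicates 2 and 4 stood above the others, and they are neighbours in the order of the autosomal means. Over the 7 oocytes the mitochondrial share had r = -0.189 and rho = -0.179 with the autosomal mean. The part of these reads in the autosomal values was not tested. No oocyte lay far enough from the other 6 to be called an outlier by Dixon's criterion in any of 24 measures.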

How the results depend on the processing

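Of 144 alternative values of the main results, 119 stayed within the bounds set, mostly 1 SD between oocytes or pairs, and 25 moved further. In sign, 0 changed, but shares and spreads cannot change sign, so for those results this was fixed in advance. Leaving out an oocyte other than replicate 3 or 7 likewise cannot move the spread of means. CpGs split by the number of oocytes reading them, and the common density mix, were chosen after seeing the data. The causes of the shifts were not tested. No paired analysis was possible because no 2 groups were compared. Leaving out 1 oocyte gave a spread of means of 12.68 to 18.9 points (12.7 without replicate 7), a share of pairs in order of 66.7% to 86.7%, a forward share of 48.3% to 58.6%, a reverse share of 39.2% to 42.3%, an index of 0.441 to 0.544, an intermediate difference between the 3 highest and 3 lowest oocytes of 2.95 to 4.55 points, r of 0.783 to 0.933, and 10.2% to 24.4% of partly methylated CpGs in order (24.4% without replicate 1). The spread was 11.7 points at CpGs with 10 or more positions within 100 bp and 11.3 at CpGs read in all 7 oocytes. In the densest class it was 1.16 points, and 11.4 with positions counted within 250 bp. With at least 20 reads per CpG the forward share was 63.2% and the index 0.618, and no CpG set was left for the order over all 7. In windows of 1 kb the reverse share was 25.1%. At CpGs read in at most 3 of the 11 other oocytes the forward share was 64.8% and the index 0.609. The intermediate difference was 4.53 points over all CpGs, 11.8 at CpGs read in all 7, 1.60 at those read in at most 3 of the 7 (r = 0.404) and 0.234 at those read in at most 3 of the 11 others (r = 0.123). Intermediate CpGs stayed so in the higher oocyte at 72.3% with at least 10 reads, 29.7% at CpGs read in at most 3 of the 7 and 5.71% in at most 3 of the 11. They were methylated there at 4.70%, 20.9% and 38.9%, and low at 46.0% and 51.6% in the last 2 sets. With methylated set at 60% or above, 9.28% of partly methylated CpGs followed the order. With at least 10 reads per strand, 61.3% were methylated on the other strand, against 53.9%. Depth limits most the values of replicate 3, with 19192 CpGs.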
